A study of Homo sapiens with 2 samples.

Results

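Cadherins and protocadherins are adhesion receptors of the cell surface that share calcium-binding extracellular repeats. The set described here held every row of the deposited gene table whose symbol is CDH or PCDH followed by a number, or names an alpha, beta or gamma protocadherin, pseudogenes left out. This gave 43 of the 19029 genes of the table, namely 10 cadherins, 8 non-clustered protocadherins and 25 clustered protocadherins. Cadherin family genes that have no row there were not analysed. BT549 cells, a long-used line from a human breast carcinoma, either overexpressed the long non-coding RNA SNHG15 or carried the control vector (pcIp2). The labels do not say whether the cells were a clone or a pool. With 1 library on each side there was no replicate to check a difference against and no p-value was computed. All 95% intervals cover counting error only. In such a design the effect of SNHG15 and any other difference between the 2 cultures cannot be told apart.

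The SNHG15 library held 16570496 counts and the vector library 20799017. SNHG15 itself had 34450 counts in the former against 466 in the latter, the direction that the labels give. Of the marker lists, the 5 mesenchymal genes were abundant in both libraries, at summed levels of 4680.3 and 5965 scaled CPM (a gene's counts relative to the size of its library). Vimentin (VIM) stood at 1998 against 1993 CPM, while COL1A1, FN1 and THY1 were at least 1.5-fold lower and SPARC was higher in the SNHG15 library. The 5 epithelial markers in the table summed to 729 against 1239 CPM, nearly all of it KRT18 and KRT8. EPCAM, ESRP1, GRHL2 and CLDN3 have no row in the gene table and were not analysed. KRT19 had 0 counts against 23, CLDN7 had 2 against 40 and CLDN4 had 3 against 1. Markers of other cell types summed to far lower levels, with 4 neural markers (MAP2, SNAP25, STMN2 and SYP) at 12.1 and 11.8 CPM. Within this sum SNAP25 was lower in the SNHG15 library, at 26 counts against 74, while SYP had 172 against 148. Reads of such markers do not show that cells of these other types were present in the cultures. The 2 endothelial markers in the table (KDR and TEK) summed to 0.232 and 3.75 CPM, and the 2 haematopoietic ones (CD14 and CD68) to 11.6 and 36.7 CPM. Whether these differences had a part in the results below was not tested. In bulk RNA, fewer cells expressing a gene and less of its RNA per cell cannot be told apart.

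Classical cadherins bind the same cadherin on the neighbouring cell and are anchored to actin through beta-catenin and alpha-catenin. They are divided into type I (CDH1, CDH2, CDH3, CDH4 and CDH15 here) and type II (CDH6, CDH10, CDH11 and CDH24 here), and tumour cells of mesenchymal character often express N-cadherin in place of E-cadherin. Non-clustered protocadherins are encoded by separate loci, while the alpha, beta and gamma protocadherins lie side by side on chromosome 5. In the alpha and gamma clusters each variable first exon has its own promoter and is spliced to constant exons shared by the whole cluster, and neurons use this to give each cell its own combination of isoforms.

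Of the 43 genes, 18 reached a mean of 1 CPM over both libraries and were compared, 6 cadherins, 5 non-clustered and 7 clustered protocadherins. CPM here are counts scaled by TMM, a normalization that sets the bulk of genes to equal levels. Among these 18, 4 had a ratio (SNHG15 over vector) whose whole interval lay above 2, called beyond 2-fold higher (CDH2, CDH4, PCDHGA9 and PCDHGB7), against 2.20% of all 12934 genes compared. The 2 genes beyond 2-fold lower were CDH11 and PCDH1, against 2.45% of all genes. By the looser rule of a ratio of at least 1.5-fold with an interval excluding 1, 11 of the 18 were higher (61.1%, against 13.3% of all genes), 3 were lower (16.7%, against 12.2%) and 4 were neither. The median log2 ratio of the 18 was 0.65, and that of all genes compared was 0.02. These shares are a description, since the gamma genes have overlapping models and CDH4 passed the minimum only through the library in which it was high. In the authors' deposited table, 10 of the 43 genes were higher and 2 lower at an adjusted p-value below 0.05 and an FPKM ratio of at least 2-fold, against 4.88% and 3.27% of the 19029 genes.

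**Figure D1:**
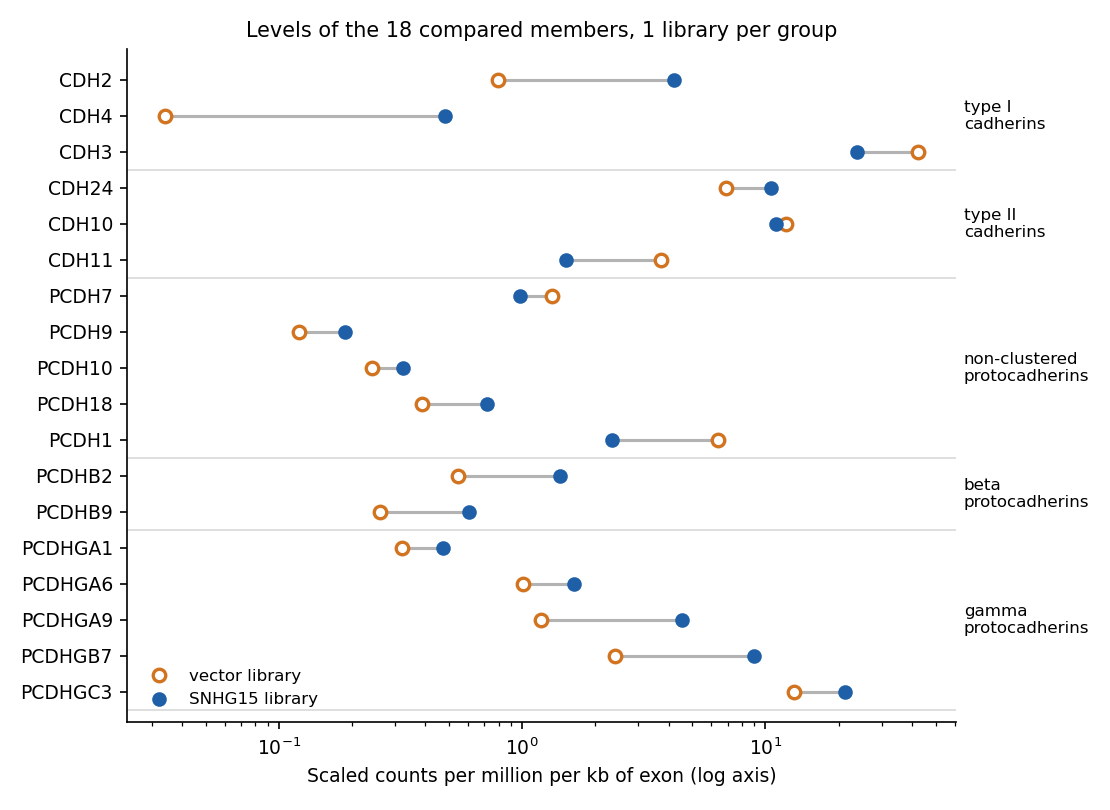
Levels of the 18 compared genes in scaled CPM per kb of exon (log axis), with the vector library as open circles and the SNHG15 library as filled circles, 1 library each and no error bars. CDH3 and PCDHGC3 lie farthest to the right in both libraries, and CDH2 moves from 0.799 to 4.22.

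By whole exonic length, the same 4 genes led the order of levels in both libraries. Per kb of exon, CDH3 was highest (42.3 CPM per kb in the vector library and 23.7 in the SNHG15 library), followed by PCDHGC3 (13.1 and 21.2) and CDH10, at rank 3 in both (12.2 in the vector library). CDH24 held rank 4 in both (6.87 and 10.5). Behind them the order differed: PCDH1 and CDH11 held ranks 5 and 6 in the vector library, and PCDHGB7 and PCDHGA9 took these places in the SNHG15 library. CDH2 went from 0.799 CPM per kb to 4.22. For the gamma genes these lengths include exons shared by the whole cluster, whose reads may have been left out. Over the bases that no other gamma model shares, a length chosen after seeing the data, PCDHGC3 stood at 21.9 CPM per kb in the vector library and 35.4 in the SNHG15 library, the latter above CDH3. PCDHGB7 stood at 4.30 and 16 by this length, above CDH11 in the former and above CDH10 and CDH24 in the latter. The order between gamma genes and the rest thus depends on the length used. The plot of levels per kb shows that the classes overlap widely, so that no class was uniformly the most abundant.

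Among type I cadherins, N-cadherin and P-cadherin differed in opposite directions. CDH2, N-cadherin, a cadherin of neural and mesenchymal cells (chromosome 18, 27950966 to 28177446, minus strand, hg38), had 360 counts with SNHG15 and 79 with the vector. At 20.9 against 3.95 CPM it was 5.28-fold higher (4.12 to 6.82). CDH3, P-cadherin, the placental and basal epithelial cadherin (chromosome 16, 68636189 to 68722616, plus strand), had 2551 counts against 5263 and was 1.78-fold lower (1.70 to 1.87). Its model overlaps AC126773.4 on the opposite strand, and since strandedness is not stated reads of the overlap cannot be told apart. Per kb it was the most abundant cadherin in both libraries. The count of CDH2 per count of CDH3, which does not depend on the scaling, was 0.0150 in the vector library and 0.141 in the SNHG15 library, a difference of 9.40-fold (7.31 to 12.2).

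CDH4, R-cadherin, a close relative of N-cadherin first known from retina (chromosome 20, 61252426 to 61940617, plus strand), had 61 counts against 5 and was 14.1-fold higher (5.73 to 45.0), with levels of 3.54 and 0.25 CPM. CDH1, E-cadherin, the adherens junction cadherin of epithelia, was barely detected, at 12 counts against 11 (ratio 1.26, 0.510 to 3.16). Its gene model begins 14.6 kb downstream of the end of CDH3. CDH15, M-cadherin of muscle, had 6 counts against 12 (ratio 0.579, 0.178 to 1.67). For these last genes a difference of less than a few-fold was not detectable at this depth.

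The type II cadherins did not move together. CDH11, OB-cadherin, known from osteoblasts and mesenchyme (chromosome 16, 64943753 to 65126112, minus strand), had 352 counts against 992 and was 2.43-fold lower (2.15 to 2.76); scaled by library totals instead, its ratio was 0.445 and its interval no longer lay below 0.5. Its model overlaps AC010533.1 on the same strand, and reads of the overlap could have gone to either gene. CDH24 (chromosome 14, 23047062 to 23057538, minus strand) had 681 counts against 514 and was 1.53-fold higher (1.37 to 1.72), a call lost with DESeq2 size factors. CDH10, a type II cadherin known from brain (chromosome 5, 24487100 to 24644978, minus strand), had 694 counts against 892, a ratio of 0.901 (0.814 to 0.996) that stayed within 1.5-fold. CDH6 had 9 counts in each library. CDH13, T-cadherin, which is anchored to the membrane by a lipid and has no cytoplasmic domain, had 0 counts against 4.

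The make-up of cadherin counts differed accordingly. CDH3 took 67.6% of the counts of the 10 cadherin genes in the vector library (exact Clopper-Pearson interval 66.6 to 68.7) and 54.0% in the SNHG15 library (52.5 to 55.4). CDH2 went from 1.02% (0.805 to 1.26) to 7.62% (6.88 to 8.41), and CDH24 from 6.61% to 14.4%. CDH11 went from 12.7% to 7.45%. Shares of counts do not depend on the scaling but weight longer genes more, and one share can only go up where another goes down.

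**Figure D2:**
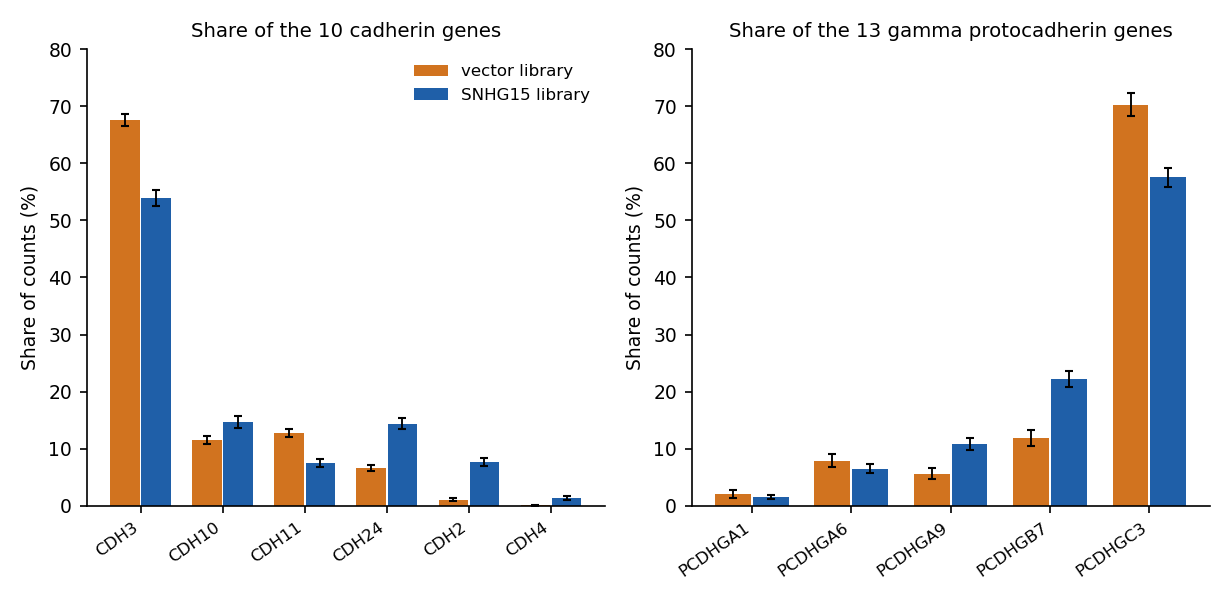
Share of counts (%) of each compared gene among the 10 cadherin genes (left) and the 13 gamma protocadherin genes (right), in the vector and the SNHG15 library, with exact 95% binomial intervals as error bars. CDH3 and PCDHGC3 hold the largest shares in both libraries and smaller ones in the SNHG15 library, at 54.0% and 57.6%.

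Non-clustered protocadherins, which are best known from developing brain and embryo, differed in both directions. PCDH1, a protocadherin of airway and other epithelia (chromosome 5, 141853111 to 141879246, minus strand), had 239 counts against 751 and was 2.71-fold lower (2.34 to 3.15). PCDH7 (chromosome 4) had 207 counts against 326, a ratio of 0.735 (0.615 to 0.878), short of 1.5-fold; with the GC trend removed it was 0.648 and counted as lower. PCDH18 had 83 counts against 52 (ratio 1.85, 1.29 to 2.67) and PCDH9 100 against 75 (1.54, 1.13 to 2.11), and both counted as higher, PCDH9 not with DESeq2 size factors or with the GC trend removed. PCDH10 had 57 counts against 49, and its interval included 1 (0.903 to 2.01).

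Of the non-clustered genes below the minimum of 1 CPM, 2 had intervals excluding 1, and both were higher. PCDH17, on chromosome 13, had 19 counts against 1 (ratio 22, 3.50 to 914), and PCDH8, a protocadherin of early mesoderm and synapses on the same chromosome, had 26 against 8 (3.76, 1.65 to 9.62). PCDH19, a gene of chromosome X linked to epilepsy, had 2 counts against 0. PCDH17 and PCDH8 had most of their counts in the library in which they were high. Both also met the looser rule without a minimum, by which 2204 of all 19029 genes were higher and 1960 lower. At such counts the direction has a counting interval but the size is hardly bounded.

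**Figure D3:**
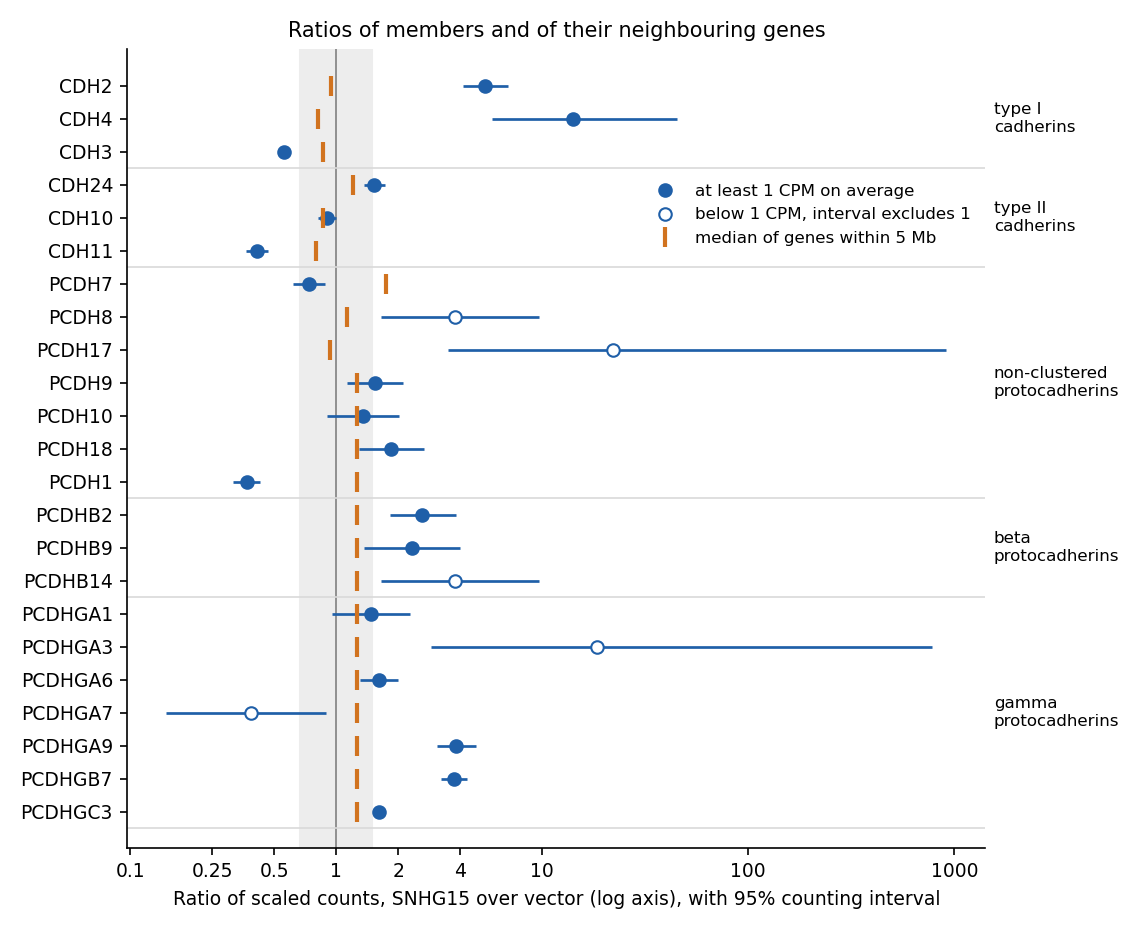
Ratio of scaled counts, SNHG15 over vector (log axis), with 95% counting intervals as bars, for the 18 compared genes (filled) and the 5 genes below 1 CPM whose interval excludes 1 (open); orange ticks are the median ratio of the genes within 5 Mb and the grey band marks 1.5-fold. CDH2, CDH4, PCDHGA9 and PCDHGB7 lie above the band with their whole interval past 2-fold, as do PCDH17 and PCDHGA3 among the open circles. CDH11, PCDH1 and CDH3 lie below the band with their whole interval, CDH3 short of 2-fold.

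In the clustered protocadherins, all 7 compared genes had ratios above 1, where 6613 of all 12934 genes compared had a log2 ratio above 0. Of the 7, 6 were at least 1.5-fold higher with an interval excluding 1, against 13.3% of all genes. Since 5 of the 7 are gamma genes with overlapping models, these counts are a description. The 7 genes were chosen for display of their promoters because they lie in neighbouring clusters of chromosome 5 and had ratios on the same side of 1. Of the 43 genes, 34 had a promoter window in RefSeq (GRCh38.p14). The stretches below run from 120 to 37 bases before the RefSeq start of each compared clustered gene and, as a non-clustered neighbour, of PCDH1, 5′ to 3′ on the gene's strand. Capitals mark CGCT, the core letters of the element described in protocadherin promoters, or AGCG, which is CGCT on the other strand; where both overlap the run is longer.
PCDHB2: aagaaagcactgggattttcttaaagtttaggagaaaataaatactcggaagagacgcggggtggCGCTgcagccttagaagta
PCDHB9: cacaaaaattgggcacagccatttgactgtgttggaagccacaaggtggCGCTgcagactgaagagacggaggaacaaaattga
PCDHGA1: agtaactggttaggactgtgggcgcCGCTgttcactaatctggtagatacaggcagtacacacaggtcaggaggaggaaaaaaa
PCDHGA6: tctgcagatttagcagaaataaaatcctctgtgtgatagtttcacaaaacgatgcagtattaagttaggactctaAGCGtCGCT
PCDHGA9: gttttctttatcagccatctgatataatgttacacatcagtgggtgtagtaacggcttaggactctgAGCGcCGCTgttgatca
PCDHGB7: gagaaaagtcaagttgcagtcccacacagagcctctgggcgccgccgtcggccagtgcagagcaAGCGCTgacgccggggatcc
PCDHGC3: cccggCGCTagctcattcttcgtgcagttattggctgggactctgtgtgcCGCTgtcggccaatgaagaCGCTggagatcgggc
PCDH1: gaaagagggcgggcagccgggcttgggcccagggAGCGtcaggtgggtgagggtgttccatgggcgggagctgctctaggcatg

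The stretches lie at chr5:141094495-141094578, chr5:141187041-141187124, chr5:141330394-141330477, chr5:141373771-141373854, chr5:141402658-141402741, chr5:141417557-141417640 and chr5:141475846-141475929 on the plus strand, and at chr5:141869664-141869747 on the minus strand. CGCT on the gene's strand was found within this stretch in all 7 clustered genes. In PCDHGA6 the match ends on the last base of the stretch, so the count of 7 depends on the bounds used. CGCT began 55 bases before the start in PCDHB2, 71 in PCDHB9, 95 in PCDHGA1, 40 in PCDHGA6, 48 in PCDHGA9 and 54 in PCDHGB7. PCDHGC3 held 3 matches, at 115, 70 and 51 bases. PCDH1 held it on the other strand only. Among all 35116 RefSeq windows, 23.4% held CGCT on the gene's strand in this stretch, against 19 of the 26 windows of clustered genes in the table. Over the whole 300 bases of each window the share was 54.3%, against 25 of these 26. The letters are therefore common, and a match is a description of the sequence, not a site. PCDHB2 and PCDHB9 share the run GGTGGCGCTGCAG around it, the longest they have in common, which 13 of the 35116 windows hold, and 10 of the 13 genes with it are beta protocadherins. Since all 7 compared clustered genes carried the CGCT letters, their presence cannot be set against the size of the ratios, and no link was tested.

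The gamma cluster gave most of the counts of clustered genes. PCDHGC3, a C-type isoform (chromosome 5, 141475947 to 141512979, plus strand), had 1988 counts against 1422 and was 1.62-fold higher (1.51 to 1.73). PCDHGB7 had 767 counts against 239 and was 3.72-fold higher (3.21 to 4.31). PCDHGA9 had 372 against 113 and was 3.81-fold higher (3.08 to 4.75). Both thus lay well past PCDHGC3, with intervals that do not overlap its own. PCDHGA6, at 222 counts against 159, was 1.62-fold higher (1.31 to 1.99), but at 1.49 it missed the call with the GC trend removed. PCDHGA1 had 51 counts against 40, a ratio of 1.48 (0.957 to 2.29), and met the call with library totals, thinning or GC removal.

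Within the cluster the isoforms did not differ by a common factor. PCDHGC3 took 70.3% of gamma counts in the vector library (68.3 to 72.3) and 57.6% in the SNHG15 library (55.9 to 59.2). PCDHGB7 went from 11.8% (10.4 to 13.3) to 22.2% (20.8 to 23.6) and PCDHGA9 from 5.59% (4.63 to 6.68) to 10.8% (9.76 to 11.9), while PCDHGA6 went from 7.86% (6.73 to 9.12) to 6.43% (5.64 to 7.30). The count of PCDHGB7 per count of PCDHGC3 was 2.30 times as large in the SNHG15 library (1.95 to 2.71), and that of PCDHGA9 2.35 times (1.88 to 2.96). Of the 8 gamma genes below 1 CPM, PCDHGA3 had 16 counts against 1 (ratio 18.5, 2.88 to 777) and PCDHGA7 went the other way, with 8 against 24 (0.386, 0.150 to 0.888). The intervals of the other 6 included 1.

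Gamma gene models overlap, and this bears on every value of the cluster. All 13 models share 2181 bases of exon, between 27.6% and 45.9% of a model. PCDHGA10 had 1 count in each library and PCDHGC4 0 in the SNHG15 library, so reads from the shared exons were not given to every model. Whether they were left out or divided cannot be told from the deposited files. Counts pooled over the 13 gamma genes, whose sum does not depend on how reads were divided among them, were 3452 against 2022, a ratio of 1.98 (1.87 to 2.09). Without PCDHGC3 the pooled ratio was 2.82 (2.57 to 3.11), and without PCDHGA9 and PCDHGB7 as well it was 1.52 (1.28 to 1.80).

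Beta protocadherin genes have a single coding exon each and no constant exons, so that their reads are less open to such division, although they are similar in sequence. PCDHB2 had 102 counts against 45 and was 2.62-fold higher (1.83 to 3.81). PCDHB9, whose model overlaps that of PCDHB10, had 46 against 23 and was 2.32-fold higher (1.37 to 4.0). PCDHB14, just below 1 CPM, had 26 against 8 (3.76, 1.65 to 9.62). The other 7 beta genes had 0 to 9 counts in a library, with intervals that included 1. Pooled over the 10 beta genes, counts were 198 against 97, a ratio of 2.36 (1.84 to 3.04). The 2 alpha genes in the table, PCDHA9 and PCDHA12, had 5 and 4 counts with SNHG15, and 2 and 0 with the vector.

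Several members lie close to each other, so their ratios were set beside those of other compared genes within 5 Mb. Around the protocadherin clusters and PCDH1, 66 such genes had a median log2 ratio of 0.33, and 52 of them were above 0. PCDHGA9 and PCDHGB7 lay 1.58 and 1.55 above this median and PCDHB2 1.02, whereas PCDHGC3 and PCDHGA6 lay 0.36 above it. PCDH1, whose model lies 340.1 kb from the end of the gamma models, lay below this median (difference of −1.76). The 78 genes around CDH11 had a median of −0.32 and the 100 around CDH1 and CDH3 one of −0.22, with CDH11 and CDH3 below them by differences of −0.96 and −0.62. These windows overlap on chromosome 16, so their medians are not separate observations. The 72 genes around CDH4 had a median of −0.29, opposite in sign to CDH4 itself (3.35), and the 23 around CDH2 one of −0.08, against 2.37 for CDH2. CDH24 lay among 85 genes with a median of 0.27, against its own 0.62. The part of these regional differences in the members' ratios was not tested. In the plot of ratios with intervals, which uses 5 Mb, the neighbours and the gene lie on opposite sides of 1 for CDH2, CDH4, PCDH1, PCDH7, PCDH17 and PCDHGA7. Within 10 Mb the neighbours' medians for CDH2 and PCDH17 were 0.12 and 0.11, on the same side as the gene. The medians within 5 Mb of PCDH7 and PCDH17 rest on 4 and 7 genes only, and that of PCDH7 went from 0.80 to 0.13 within 10 Mb.

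Genes that act with cadherins were taken from lists of related genes, whose counts stand against the 13.3% of all genes that were 1.5-fold higher and the 12.2% that were lower. Nothing particular to a list is read from its counts. Of 9 compared catenins and plakophilins, 2 were 1.5-fold higher, 1 was lower and 6 were neither (median log2 ratio 0.40). JUP, plakoglobin, which joins both adherens junctions and desmosomes, had 2155 counts against 1045 and was 2.39-fold higher (2.22 to 2.57). CTNNA1, alpha-catenin, the link to actin, was 1.78-fold higher (1.70 to 1.87), and PKP3, a plaque protein of desmosomes, was 2.44-fold lower (2.13 to 2.81). CTNNB1, beta-catenin, had a ratio of 1.26 (1.19 to 1.34) and CTNND1, p120-catenin, which holds cadherins at the membrane, one of 0.967 (0.886 to 1.06).

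Of 10 compared atypical cadherins and relatives, 3 were higher (against 13.3% of all genes), 0 lower and 7 neither (median 0.31). CELSR1, a cadherin of planar cell polarity, had 1745 counts against 585 and was 3.45-fold higher (3.14 to 3.80), the giant cadherin FAT1 was 2.07-fold higher (1.94 to 2.21) and the calsyntenin CLSTN3 1.66-fold higher (1.54 to 1.79). Of 2 compared genes in the desmosomal list, desmoglein DSG2 was 1.70-fold higher (1.24 to 2.33), and the other was neither. Nectins and afadin had 1 higher, 1 lower and 3 neither of 5, against 13.3% higher and 12.2% lower over all genes. Afadin, AFDN, which ties nectins to actin, was 2.13-fold higher (1.76 to 2.58), and the poliovirus receptor PVR was 1.69-fold lower (1.56 to 1.83).

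**Figure D4:**
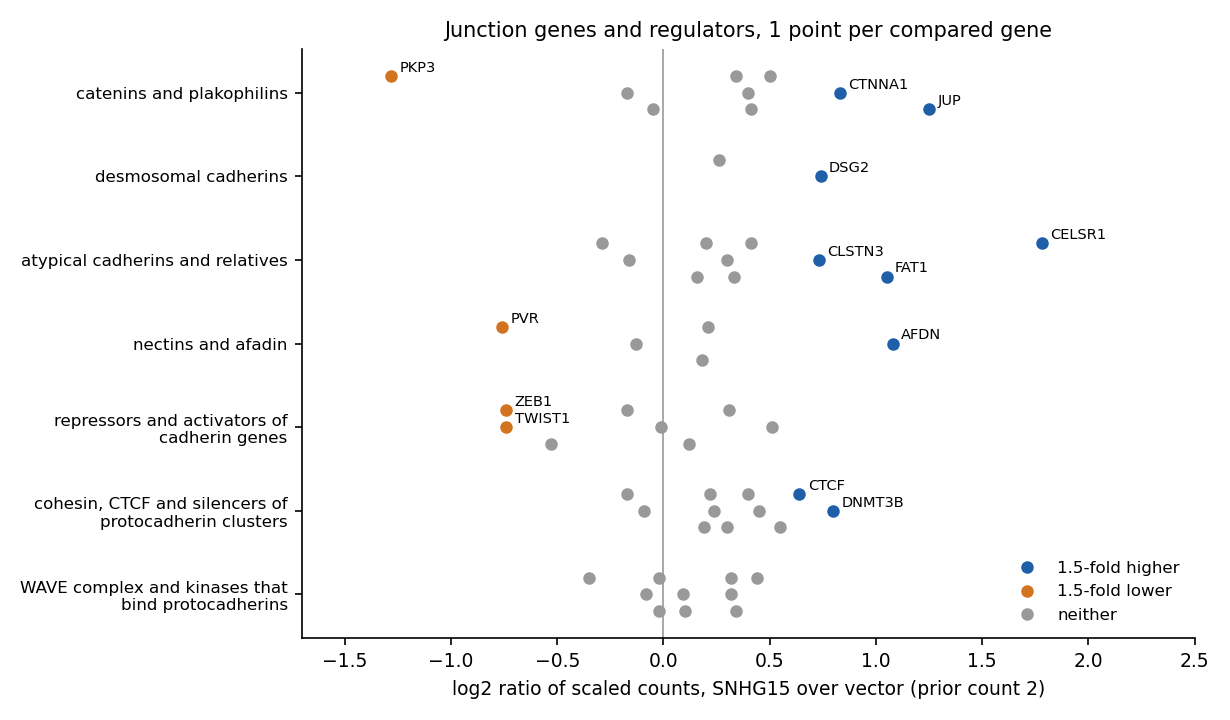
The log2 ratio of scaled counts, SNHG15 over vector, for each compared gene of 7 lists of junction genes and regulators, 1 point a gene, with genes at least 1.5-fold higher in blue, lower in orange and neither in grey. CELSR1 and JUP lie farthest to the right, PKP3 farthest to the left, and all 10 genes of the WAVE list lie in grey.

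Regulators of cadherin genes were a list of repressors such as the SNAI and ZEB factors and of their opponents. Of 8 compared, 0 were higher, 2 lower and 6 neither (median −0.09), where 13.3% of all genes were higher and 12.2% lower. TWIST1 had 627 counts against 1215 and was 1.67-fold lower (1.52 to 1.85), and ZEB1, a repressor of CDH1, had 55 against 108 and was 1.70-fold lower (1.21 to 2.39). MMP9, a secreted protease of the extracellular matrix, had 17 counts against 39 (ratio 0.505, 0.268 to 0.913). The call of MMP9 was lost in the thinned vector library.

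Promoter choice in the protocadherin clusters depends on CTCF and cohesin, and silencing of the clusters on SMCHD1, DNMT3B and SETDB1. In this list of 11 genes 2 were higher, 0 lower and 9 neither (median 0.30), a share of higher genes near the 13.3% of all genes. CTCF had 727 counts against 539 and was 1.56-fold higher (1.39 to 1.75), and DNMT3B, a DNA methyltransferase, had 116 against 76 and was 1.77-fold higher (1.31 to 2.39). With the GC trend removed 1 gene of the list was higher. The WAVE complex and kinases that bind protocadherins had 0 higher and 0 lower of 10 compared (median 0.09).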

How the data were processed

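RNA of 1 SNHG15-overexpressing and 1 vector control culture of BT549 was sequenced. Per the submitters' processing notes, reads were placed on hg38. The library preparation kit is named per the labels' protocols, whereas strandedness, aligner, counter and annotation release are not stated there. Per the file headers, the authors deposited raw counts for each gene, all whole numbers, and the table lists genes with at least 2 counts in all. The authors also deposited FPKM in the same table. Their gene lengths equal the summed length of all distinct exons of GENCODE 29 within 0.1% for 87.6% of 18903 matched genes, which counts overlapping exons repeatedly (median 1.39 times the exonic length), so levels per kb here used the exonic length without repeats. The authors' deposited p-values and q-values stand in a table named for edgeR, whose settings are not stated. The 3 deposited subsets repeat the table of all genes, and 2 further columns copy the FPKM.

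Counts were scaled by TMM (edgeR 4.0.16, R 4.3.3), with factors of 1.04 for the SNHG15 and 0.960 for the vector library. Ratios carry exact conditional-binomial 95% intervals (scipy 1.17.1). Log2 ratios used a prior count of 2. The floor of 3 counts for a library at 0 was worth 0.174 CPM (SNHG15) and 0.150 CPM (vector). Reads are not independent molecules, so intervals cover counting error only. The calling functions were tested on simulated data. Any member could be named, with those at 1 CPM or more or with an interval excluding 1 given by their counts and the rest mostly by ranges. Other named genes were up to 4 called genes of each list, and CTNNB1, CTNND1, CTNNA1 and JUP. The tally of a further list, of proteases, is not reported here, apart from its gene MMP9. The members and lists were chosen with earlier results of these data known. As alternatives, values were recomputed with size factors of DESeq2 1.42.0, with library totals, without a filter, with a minimum of 5 CPM, thinning of the vector library, with removal of the transcript GC trend by loess (span 0.5), FPKM with pseudocounts of 0.1 and 1, prior counts of 0.5 and 10, and windows of 1 and 10 Mb. Levels per kb of gamma genes over their own bases were added after seeing the data.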

Additional observations from a re-analysis of the deposited data

How the results depend on the processing

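The calls of CDH2, PCDHGA9 and PCDHGB7 as beyond 2-fold higher and of PCDH1 as beyond 2-fold lower held under DESeq2 size factors, library totals, no filter, a minimum of 5 CPM, thinning and GC removal. CDH4 dropped out at a minimum of 5 CPM, which it does not reach. Scaling by library totals shifted the median over all genes by 0.12 (log2), turned the split of genes 1.5-fold higher and lower from 1725 and 1574 into 2380 and 1151, left 1 gene beyond 2-fold lower (CDH11 was lost, at a ratio of 0.445) and moved the pooled gamma ratio to 2.14, which GC removal moved to 2.12. At a minimum of 5 CPM, 6 genes were 1.5-fold higher. The median log2 ratio of the cadherins turned to −0.15, with CDH4 left out. That of the non-clustered protocadherins turned to −0.94, with PCDH9, PCDH10 and PCDH18 left out and only PCDH1 and PCDH7 remaining. Without a filter the cadherin median was 0.01, so its sign depended on the filter. By DESeq2 size factors CDH24 and PCDH9 were no longer 1.5-fold higher. With GC removal PCDH9 and PCDHGA6 were not, while PCDHGA1 was, and PCDH7 counted as 1.5-fold lower (0.648). FPKM with a pseudocount of 1 shrank ratios of low genes, for CDH4 from 14.1 to 1.40, by construction. It also moved CDH2 from 5.28 to 2.76, PCDHGB7 from 3.72 to 2.83 and PCDHGA9 from 3.81 to 2.35. PCDH1 went from 0.368 to 0.598 and CDH11 from 0.411 to 0.595, both then short of 2-fold lower. PCDHGC3 and CDH24 hardly changed, at 1.63 and 1.54. Medians of neighbouring genes changed sign within 10 Mb for CDH2 (0.12), PCDH17 (0.11) and CDH10 (0.05), and for no other locus with a value within 1 or 10 Mb. The thinned vector library had 0 alpha protocadherin counts and gave no pooled ratio. No ratio of a called member changed direction under these settings. No paired analysis was possible because each group held 1 library. Depth limits the 20 genes below 1 CPM whose interval included 1: a difference was not detectable there, which does not show that it was absent.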

Other observations

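PCDH11X, a non-clustered protocadherin of chromosome X that the symbol rule did not take, had 32 counts with SNHG15 and 6 with the vector, a ratio of 6.17 (2.55 to 18.1). With PCDH17 and PCDH8 it was among the low non-clustered protocadherins with more counts in the SNHG15 library. The 25 genes of the set below 1 CPM together had 185 counts against 125. All 43 genes together had 9118 counts against 11164, or 550.3 and 537 CPM without TMM scaling, so that the sum of the set was nearly the same share of both while its make-up differed.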
